A study of Mus musculus with 2 samples.

Results

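Complex I of the mitochondrial respiratory chain is built from subunits encoded by the Nduf genes of the nucleus and by mitochondrial DNA, with the help of assembly factors that leave the finished complex. The binding of GABPα at the nuclear complex I genes was read from a ChIP-seq peak list of mouse CD4+ T cells. Members were the nuclear protein-coding genes of the GENCODE M21 annotation whose symbol starts with Nduf, together with Acad9, Ecsit, Timmdc1, Tmem126a and Tmem126b. The rule gave 51 genes of 21938, on 17 chromosomes, of which 38 were subunit genes and 13 were assembly factor genes. Of the subunit genes, 7 encode the core subunits conserved from bacteria and 31 encode accessory subunits.

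CD4+ T cells were isolated on magnetic beads from wild-type C57BL/6 mice, and chromatin was precipitated with an antibody to GABPα. The data were 1 ChIP library and 1 library of input DNA, and the peaks were called against the input. The study used mice of both sexes, the age, sex and number of the animals behind the ChIP library are not given in the sources used here, and no knockout library of the antibody's target was analysed here. A list of binding intervals holds no expression, so the label CD4 T cells could not be checked against marker genes.

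Complex I oxidises NADH, passes the electrons through iron-sulfur clusters to ubiquinone and pumps protons across the inner mitochondrial membrane. Its core subunits carry the redox centres, its accessory subunits surround them, and its assembly factors join the modules or insert and modify their parts. GABP consists of GABPα, an ETS protein that binds DNA at sites with a GGAA core, and GABPβ, which activates transcription, and GABP is also known as nuclear respiratory factor 2 for its sites in the promoters of respiratory chain genes.

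The sites below are shown because 6 of the 7 assembly factor peaks held the same letters, CCGGAAG. Each is 29 bases of mm10 centred on the copy nearest the transcript start, read 5′ to 3′ on the strand that carries CCGGAAG, and the sixth gene, Timmdc1, follows. The capitals mark this ETS recognition sequence with its GGAA core.
Acad9 (chr3:36065984-36066012, minus strand): caccgctgcaaCCGGAAGctagctcgcac
Ecsit (chr9:22085412-22085440, minus strand): tcgactcgtaaCCGGAAGctccgtggctc
Ndufaf1 (chr2:119662835-119662863, minus strand): cgggaccacaaCCGGAAGcgtggcgaacc
Ndufaf8 (chr11:120098915-120098943, plus strand): cgcgttcgactCCGGAAGaggcagggccc
Tmem126a (chr7:90457221-90457249, minus strand): cgtctcctggaCCGGAAGcccgtggacag

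The Ndufaf8 site was centred 1 bp into the gene, the shortest distance of any member, and the Tmem126a site at -6. Position 0 is here the first base of the principal transcript, and negative positions are upstream. The Ecsit site lay at 12 and the Acad9 site at 19, both in the 5′ UTR, and the Ndufaf1 site lay at -51, outside the transcript.

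Timmdc1, a membrane protein that joins membrane parts of complex I during assembly, had 4 copies of CCGGAAG in its peak, and a pair of them overlapped on opposite strands. Of 3459 peaks at coding starts, 0.405% held 4 copies or more. The 4 copies are shown because no other complex I peak held more than 2.
Timmdc1, copy centred at -5 (chr16:38522654-38522682, minus strand): tccgagagcttCCGGAAGtgagccggctg
Timmdc1, copy centred at -8 (chr16:38522657-38522685, plus strand): ccggctcacttCCGGAAGctctcggaaag
Timmdc1, copy centred at -30 (chr16:38522679-38522707, plus strand): cggaaaggagaCCGGAAGccccgccccta
Timmdc1, copy centred at -141 (chr16:38522790-38522818, plus strand): tcagtcgagccCCGGAAGtgagttggcgg

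Counting peaks no more than 1000 bp from any annotated transcript start, 23 of 51 complex I genes had one, 45.1% (95% Wilson interval 32.3 to 58.6), against a background of 17.7% of all nuclear protein-coding genes. A peak covered a transcript start at 20 of 51 genes, 39.2%, against 13.9% of all coding genes. Genes are not replicates, and 1 ChIP library allows no test across samples. Intervals here cover counting error over genes only. No member had more than 1 peak, against 301 of the 3880 coding genes with a peak. A single annotated transcript start is given for 7 genes of the 51. In neighbouring groups the share was 22 of 49, 44.9% (31.9 to 58.7), for complexes II to V and 48 of 78, 61.5% (50.4 to 71.6), for the mitochondrial ribosomal proteins. The share of complex I genes was thus close to that of the other respiratory complexes, and its interval overlapped that of the ribosomal proteins. The set for complexes II to V was chosen by symbols of subunits, with no list of assembly factors. Complex I subunits alone stood at 16 of 38, 42.1%.

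Among the assembly factors 7 of 13 had a peak, 53.8% (29.1 to 76.8), and among the subunits 16 of 38 did, 42.1% (27.9 to 57.8). The difference, subunits minus assembly factors, was -11.7 percentage points with a Newcombe interval from -38.8 to 17.5. The interval includes 0, so at this number of genes no difference between subunits and assembly factors was detectable. Within the subunits the core genes stood at 6 of 7, 85.7% (48.7 to 97.4), and the accessory genes at 10 of 31, 32.3% (18.6 to 49.9). These intervals overlap at their ends, from 48.7 to 49.9%, and the split rests on 7 core genes. Such an overlap does not decide whether the shares differ, and the difference between core and accessory genes was not tested.

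**Figure D1:**
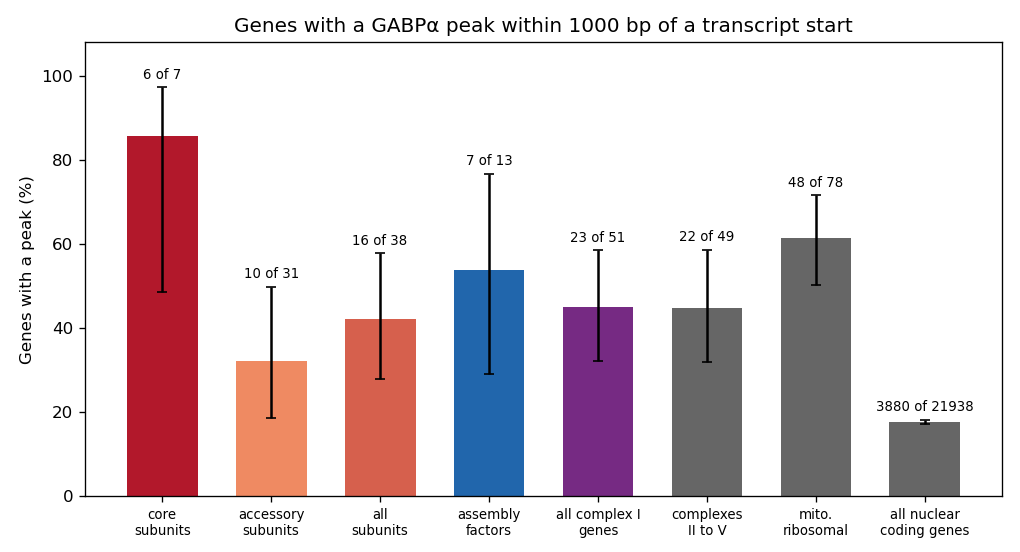
Bars give the percent of genes with a GABPα peak within 1000 bp of a transcript start, error bars the 95% Wilson interval over genes, and the numbers the genes with a peak of all genes in the group. Core subunits stand highest at 85.7%, and all nuclear coding genes stand at 17.7%.

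Of the assembly factors, Acad9, Ecsit, Ndufaf1 and Timmdc1 belong to or work with the complex that assembles part of the membrane arm, and all of these had a peak covering the start. The peak of Acad9, which is also an acyl-CoA dehydrogenase, spanned 193 bp (chr3:36065899-36066091). The peak of Ecsit, a protein that also acts in innate immune signalling, spanned 107 bp (chr9:22085385-22085491). The peak of Ndufaf1, a chaperone of early membrane intermediates, spanned 160 bp (chr2:119662745-119662904). The Timmdc1 peak spanned 393 bp (chr16:38522517-38522909) and was the widest of the assembly factors, wider than or equal to 97.2% of the list. Tmem126b, another member of that assembly complex, had no peak, and its nearest peak, 18691 bp away, was that of its neighbour and paralogue Tmem126a. The Tmem126a peak spanned 114 bp (chr7:90457191-90457304).

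Ndufaf7, a mitochondrial protein methyltransferase, had a peak of 273 bp over its start (chr17:78936935-78937207). Ndufaf8, the partner of the hydroxylase Ndufaf5, had a peak of 252 bp (chr11:120098797-120099048), and the peak nearest to Ndufaf5 itself was 103666 bp away. Ndufaf3 and Ndufaf4, which act together on the ubiquinone-binding module, had their nearest peaks 2321 and 836279 bp away. For Ndufaf2, a late-acting paralogue of Ndufa12, the nearest peak was 113929 bp away, and for Ndufaf6 it was 245829 bp away.

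Of the core subunits, Ndufs1, Ndufv1 and Ndufv2 form the module that takes electrons from NADH, and Ndufs3, Ndufs7 and Ndufs8 belong to the one that passes them to ubiquinone. Every one of these except Ndufv2 had a peak over its start. Ndufs1 had the widest complex I peak, 455 bp (chr1:63176684-63177138), wider than or equal to 98.7% of the list, and it held 12 GGAA cores. The peak of Ndufs8 spanned 370 bp (chr19:3912689-3913058) and that of Ndufv1 296 bp (chr19:4012636-4012931). The peak of Ndufs3 spanned 256 bp (chr2:90904598-90904853), and that of Ndufs7 was the narrowest of the core genes at 146 bp (chr10:80249352-80249497). The nearest peak to Ndufv2 was 9905 bp away, near the start of Washc1.

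Of the 6 core peaks 3, those of Ndufs1, Ndufs3 and Ndufs8, held CCGGAAG, against 57.2% of all peaks at coding starts. The difference was not tested, and the sites of these 3 peaks are shown next.
Ndufs1 (chr1:63176821-63176849, plus strand): ctgcagttccgCCGGAAGtagccgaggcc
Ndufs8 (chr19:3912742-3912770, plus strand): atgcggttcaaCCGGAAGgcggagcctaa
Ndufs3, copy centred at 82 (chr2:90904731-90904759, minus strand): cccgcgtccgcCCGGAAGaagagtcactg
Ndufs3, copy centred at 110 (chr2:90904703-90904731, plus strand): aagggcacggaCCGGAAGtggaaatgtgc

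The copy in Ndufs1 lay at -13 and that in Ndufs8 at -22, and the 2 copies in Ndufs3 lay 82 and 110 bp into the transcript on opposite strands.

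Of the accessory subunits, 6 of 10 in the Ndufb series, whose members sit in the membrane arm, had a peak, 60% (31.3 to 83.2), and in the Ndufa series 4 of 14, 28.6% (11.7 to 54.6). These intervals overlap, and the difference between the series was not tested. The 7 others, Ndufc1, Ndufc2, Ndufs4, Ndufs5, Ndufs6, Ndufv3 and Ndufab1, had no peak. The peaks of Ndufa9, Ndufa12, Ndufb2, Ndufb4, Ndufb7, Ndufb9 and Ndufa1 covered the start. Ndufa1 had the narrowest complex I peak, 104 bp, the lowest width in the whole list, which 10.3% of the list shared. The peak of Ndufb3 began 124 bp into the gene and that of Ndufb5 ended 70 bp upstream of it. The peak of Ndufa13, also known as Grim19, lay 714 bp into the gene by GENCODE and 176 bp from a start in RefSeq, and was the farthest inside the 1000 bp window. Nearest outside the window was Ndufaf3 at 2321 bp.

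**Figure D2:**
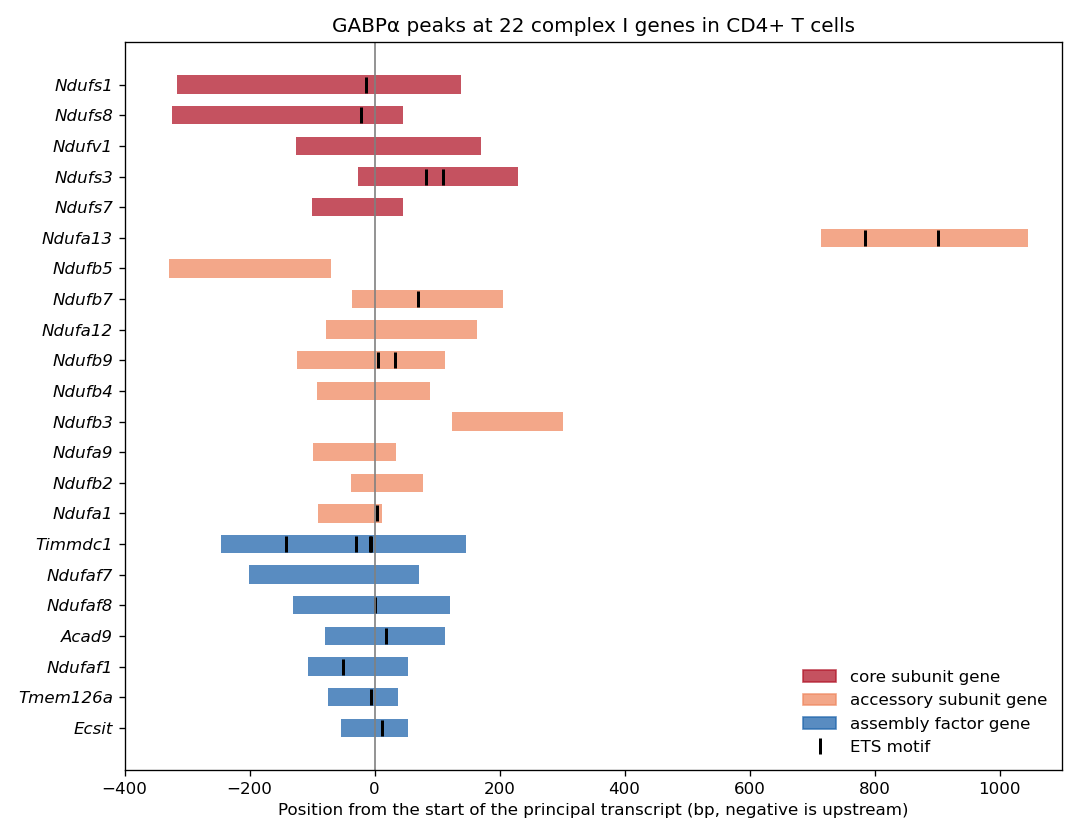
Each bar is the interval of a GABPα peak, in bp from the start of the gene's principal transcript, for 22 of the 23 complex I genes with a peak, and black ticks (ETS motif) mark CCGGAAG on either strand. The peaks of Ndufa13, Ndufb3 and Ndufb5 do not cover the start, and the others do.

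The peaks covered the principal start at 20 of 23 genes, 87.0%, against 63.8% of all coding genes with a peak. This share was 86.4% for complexes II to V and 81.2% for the mitochondrial ribosomal proteins. Peaks at complex I genes had a median width of 242 bp (interval by order statistics 160 to 273, n = 23), and ranged from 104 to 455 bp. The median was 302 bp for the core genes, 209.5 bp for the accessory genes and 193 bp for the assembly factors, and 210 bp for the 3459 peaks at coding starts. The widths of the groups overlapped. The list has no height, fold or q value, so width was the only measure of a peak besides its position.

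**Figure D3:**
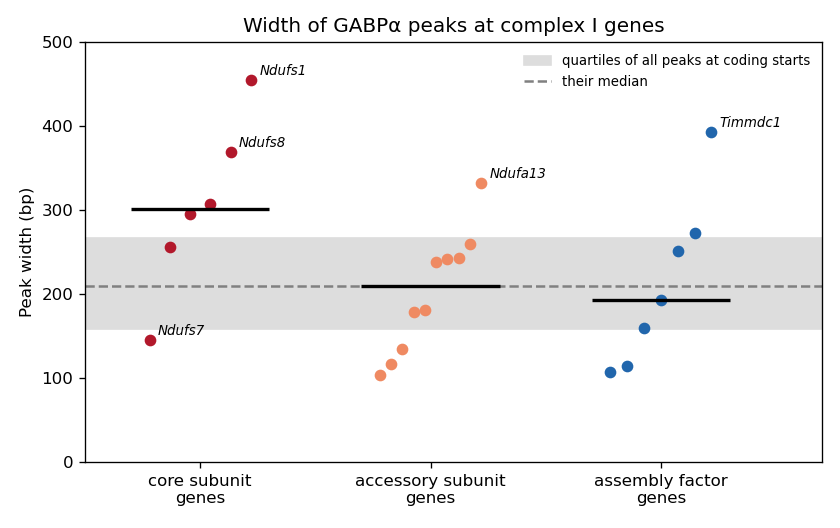
Points are peak widths in bp for core, accessory and assembly factor genes, black lines their medians, the grey band the quartiles of the 3459 peaks at coding starts and the dashed line their median. The core median of 302 bp lies above the band, with Ndufs7 at 146 bp below it.

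A peak at a complex I gene need not belong to it alone. Of the 23 peaks 9, 39.1%, also lay within 1000 bp of a start of another coding gene, against 34.3% for all coding genes with a peak. The gene pairs Ndufs1 with Eef1b2, an elongation factor subunit, Ndufs3 with Kbtbd4, Ndufb9 with Tatdn1, Ndufaf7 with Cebpz and Ndufa1 with Rnf113a1 were divergent or overlapping on opposite strands, and the peak covered both starts. The principal starts of Ndufs1 and Eef1b2 are 3 bp apart, and those of Ndufa1 and Rnf113a1 82 bp apart. Other shared peaks were those of Ndufaf8 with Tepsin, Ndufb3 with Fam126b, Ndufb5 with Mrpl47, which encodes a mitochondrial ribosomal protein, and Ndufa13 with Tssk6 and Yjefn3. For these shared peaks the list cannot tell the complex I gene from its neighbour. Of the 23 members with another coding start within 1000 bp 10 had a peak, 43.5% (25.6 to 63.2), and of the 28 without one 13 did, 46.4% (29.5 to 64.2), whereas the shares over all coding genes were 43.0% and 13.4%.

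Among the peaks CCGGAAG occurred in 13 of 23, 56.5% (36.8 to 74.4), against 57.2% of all peaks at coding starts. It was in 6 of 7 assembly factor peaks, 85.7% (48.7 to 97.4), and in 7 of 16 subunit peaks, 43.8% (23.1 to 66.8). These intervals overlapped, and the difference was not tested. The shorter CGGAAG was in 18 of 23 peaks, 78.3% against 76.6%, and GGAA was in all 23, against 98.8%. Sites of 9 peaks that lack CCGGAAG are shown next. For Ndufa9, Ndufa12, Ndufaf7 and Ndufb5 the capitals mark CGGAAG, and for the 5 others they mark the GGAA nearest the middle of the peak, 29 bases each.
Ndufa9 (chr6:126849129-126849157, minus strand): gccgtagttggCGGAAGcaccggccgtga
Ndufa12 (chr10:94198978-94199006, minus strand): aacccgccgggCGGAAGacgagatactca
Ndufaf7 (chr17:78937054-78937082, minus strand): tcaccgtaaagCGGAAGtaagctccgggc
Ndufb5 (chr3:32736769-32736797, minus strand): cacgccgccagCGGAAGtgacctcgtgga
Ndufs7 (chr10:80249413-80249441, plus strand): tggactagaaccGGAActctttggaggac
Ndufv1 (chr19:4012752-4012780, minus strand): acagagctcaaaGGAAcggaggtccctgg
Ndufb2 (chr6:39592583-39592611, plus strand): gcatcaggggtgGGAActgcagtcttgct
Ndufb3 (chr1:58586581-58586609, plus strand): taagaaactagaGGAAacaacgtccgttt
Ndufb4 (chr16:37654456-37654484, plus strand): ggcgctctggcaGGAAggggcgggagagg

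The peaks of Ndufa9 and Ndufa12 each held 2 copies of CGGAAG, and a single copy of each is shown. The copy shown for Ndufa9 lay at -18, and that shown for Ndufa12 lay 37 bp into the transcript. The CGGAAG of Ndufaf7 lay at -68 and that of Ndufb5 at -207. The peaks of Ndufs7, Ndufv1, Ndufb2, Ndufb3 and Ndufb4 held neither CCGGAAG nor CGGAAG. That these letters are absent says nothing of whether GABPα itself bound there. In the 13 genes with CCGGAAG in the peak the copy nearest the start lay a median of 13 bp from it, 9 bp for assembly factors and 22 bp for subunits, against 53 bp for the 2341 coding genes with such a copy. The farthest was that of Ndufa13, at 785. The nearest copy was on the strand of the gene in 8 of 13, 61.5% (35.5 to 82.3), against 51.0% over all coding genes with such a copy.

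Promoters, taken as 250 bp upstream to 50 bp downstream of the principal start, held CCGGAAG at 11 of 51 complex I genes, 21.6% (12.5 to 34.6), against 11.2% of all coding genes. A peak was present at 10 of those 11 genes, 90.9% (62.3 to 98.4). Of coding genes with the sequence 69.9% had one, which lies inside that interval. Without the sequence 13 of 40 complex I genes had a peak, 32.5% (20.1 to 48.0), against 11.1% of coding genes. Complexes II to V stood at 90.0% with the sequence and 33.3% without, and the mitochondrial ribosomal proteins at 86.2% and 46.9%. CCGGAAG was in 20.4% of the promoters of complexes II to V and in 37.2% of those of the mitochondrial ribosomal proteins. Assembly factors held it at 6 of 13 promoters, 46.2% (23.2 to 70.9), and subunits at 5 of 38, 13.2% (5.75 to 27.3). For the shorter CGGAAG the counts were 10 of 13 assembly factor promoters, 76.9% (49.7 to 91.8), and 10 of 38 subunit promoters, 26.3% (15 to 42.0), against 20.7% of all coding genes. The CGGAAG intervals of assembly factors and subunits did not overlap, whereas their CCGGAAG intervals did. An overlap does not decide whether shares differ, and neither difference was tested. The 10 assembly factors with CGGAAG included Ndufaf3, Ndufaf4 and Ndufaf5, which had no peak. Of the 11 genes with CCGGAAG the exception was Ndufb6, a membrane arm subunit, whose promoter holds the sequence at -229 and whose nearest peak was 9469 bp away. Its site is shown as the only one of the 11 without a peak.
Ndufb6 (chr4:40279636-40279664, plus strand): aggggaggggaCCGGAAGaacaaggacga

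**Figure D4:**
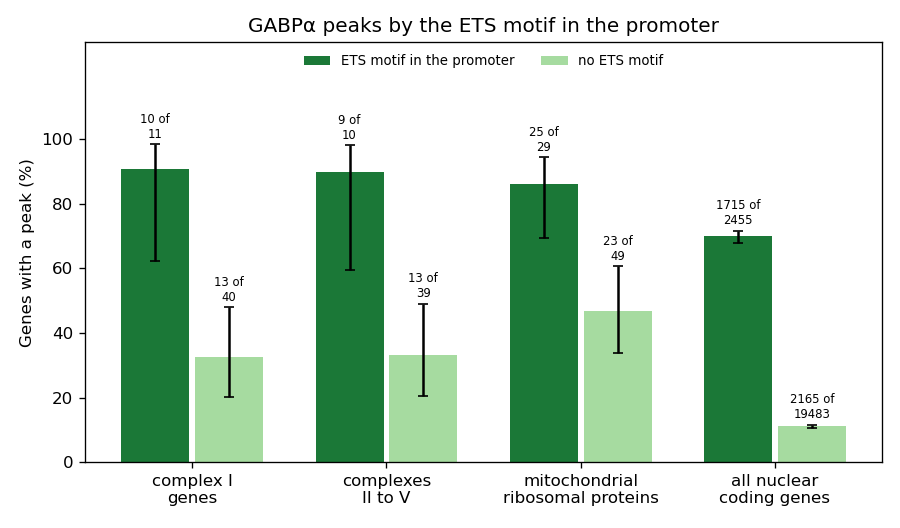
Bars give the percent of genes with a peak within 1000 bp among genes whose promoter does and does not hold CCGGAAG (ETS motif), with 95% Wilson intervals and counts of genes. For complex I the values are 90.9% and 32.5%, and for all nuclear coding genes 69.9% and 11.1%. They are 90.0% and 33.3% for complexes II to V, and 86.2% and 46.9% for the mitochondrial ribosomal proteins.

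Letters bound by other factors of respiratory genes were searched in the same promoter window on both strands. CATGCGC, one arm of the NRF1 palindrome, was in 6 of 51 complex I promoters, 11.8% (5.51 to 23.4), against 4.97% of coding genes. It was in 16.3% of promoters of complexes II to V and in 10.3% of those of the mitochondrial ribosomal proteins. The 6 complex I genes were Ndufa6, Ndufa11, Ndufb6, Ndufb8, Ndufaf4 and Ndufaf5. Of these, 0 of the 6 had a GABPα peak, with an upper interval bound of 39.0%. Of the 1091 coding genes with CATGCGC 285 had one, 26.1%, which lies inside that interval. In complexes II to V and in the mitochondrial ribosomal proteins the count was 5 of 8 each, 62.5% (30.6 to 86.3). AAGATGGC, the core of the YY1 sequence, was in 9 of 51 complex I promoters, 17.6% (9.57 to 30.3), against 3.09% of coding genes. It was in 14.1% (8.06 to 23.5) of promoters of the mitochondrial ribosomal proteins and in 4.08% (1.13 to 13.7) of those of complexes II to V. Of the 9 complex I genes 4 had a peak, 44.4% (18.9 to 73.3). Of coding genes with AAGATGGC 233 of 677 had one, 34.4%, which lies inside the interval. Ndufa9, Ndufaf8 and Ndufs7 were among the genes with a peak, and Ndufa2, Ndufa3, Ndufa4l2, Ndufb8 and Tmem126b had none. GGGCGG, the SP1 GC box, was in 24 of 51 complex I promoters, 47.1% (34.1 to 60.5), against 45.4% of coding genes. NRF1, YY1 and SP1 were not measured here, and a match of letters is not a site.

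At the 28 complex I genes without a peak the nearest one was a median of 82476.5 bp away. It was within 5000 bp for 2, Ndufaf3 and Ndufb10, within 10000 bp for 7, and more than 100000 bp away for 14, Ndufaf2, Ndufaf4, Ndufaf5 and Ndufaf6 among them. Ndufb10 had its nearest peak, at the ribosomal protein gene Rps2, 2601 bp away. For Ndufc1 the distance was 6899 bp, for Ndufb8 7259 bp, for Ndufa2 9036 bp and for Ndufb6 9469 bp. Ndufa3, Ndufa4, Ndufab1 and Ndufc2 had theirs 12225, 18296, 24352 and 28284 bp away, and Ndufa11 and Ndufa7 46754 and 61287 bp away. Ndufa4, which is also counted as a subunit of complex IV, and its paralogue Ndufa4l2, with 127961 bp, entered by their symbols. The distances of Ndufa6, Ndufa5, Ndufs4 and Ndufa10 were 121735, 136940, 151475 and 167930 bp. Those of Ndufs5, Ndufs6, Ndufa8 and Ndufb11 were 186539, 275377, 304780 and 683942 bp, and the farthest was Ndufv3 at 873797 bp.

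**Figure D5:**
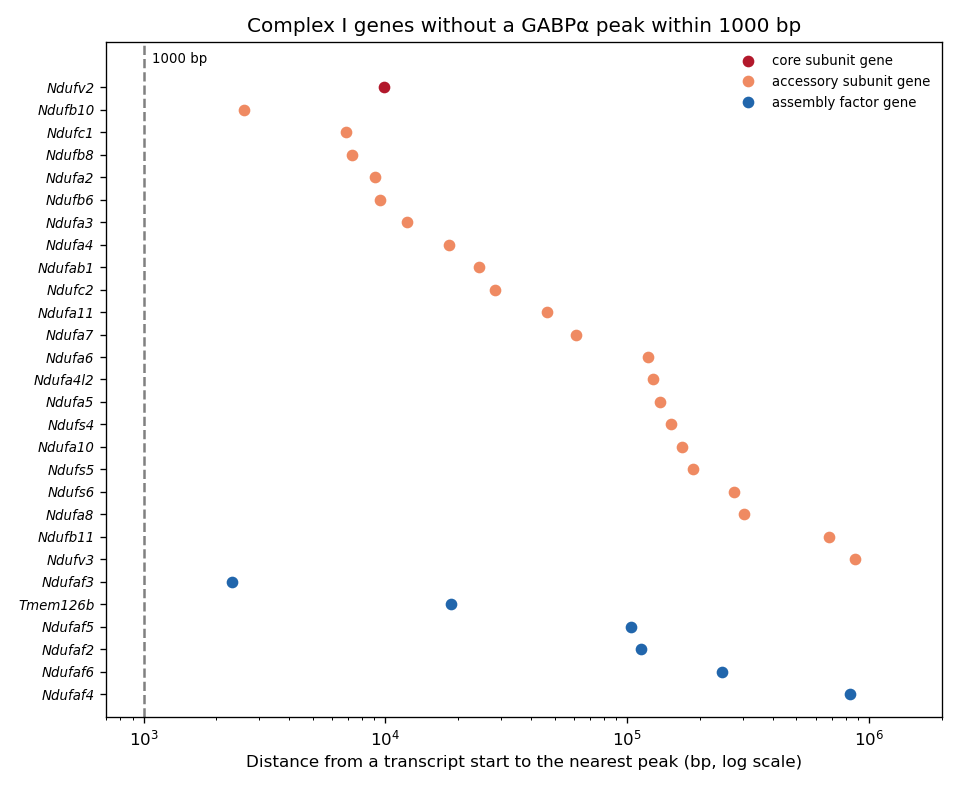
Points give, on a log axis in bp, the distance from a transcript start to the nearest GABPα peak for the 28 complex I genes without a peak within 1000 bp, marked by the dashed line. Ndufaf3 at 2321 bp and Ndufb10 at 2601 bp are the nearest and Ndufv3 at 873797 bp is the farthest.

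The absence of a peak is not the absence of binding, since the depth of the libraries is unknown. Sequences of 36 bases, the read length, were unique in the genome throughout 25 of the 28 promoters without a peak and 19 of the 23 peaks. The lowest share of unique sequences was 50.6%, in the Ndufb11 promoter, and 92.7% among the peaks. Complex I promoters had a median GC content of 57.7%, against 56.0% for all coding genes. Of the 3976 coding genes with GC content from 55.0 to 60.5%, the middle range of the complex I promoters, 23.7% had a peak.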

How the data were processed

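GABPα ChIP-seq was represented by 1 ChIP library and 1 input library of CD4+ T cells, each alone in its group. According to the methods, the authors sheared chromatin by sonication, sequenced 36-bp single-end reads, trimmed bases with quality below 20, dropped reads under 30 bases with trimmomatic, aligned to mm10 with bowtie, and used MACS2 (q value below 0.01) for the peaks. Tool versions are not given in the sources used here. The deposited list holds 6782 intervals with no count, score, height or q value, so depth is unknown. The input entered only through the peak calling.

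BED starts were taken as 0-based. Transcript starts came from GENCODE M21, and sequences from GRCm38.p6 in RefSeq, the build also named mm10. A gene was called with a peak when an interval lay within 1000 bp of any of its starts. Motifs were exact letters on both strands. Principal transcripts followed the APPRIS tag. Shares carry Wilson intervals and their difference a Newcombe interval (statsmodels 0.14.6, scipy 1.17.1, numpy 2.4.6, Python 3.11.15), and no p-value was computed. Scripts were tested on simulated intervals and sequences. Named genes were every assembly factor, every core subunit with 1 exception that enters the counts but is not reported here by itself, those with the 5 widest and 5 narrowest peaks, every gene without a peak, every gene whose peak is shared with another coding gene, and those with CCGGAAG closest to and farthest from the start. The members and lists were chosen with earlier results of these data known. Other accessory genes and sites were named after their values were seen.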

Additional observations from a re-analysis of the deposited data

How the results depend on the processing

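Of 48 alternatives, 43 left the value within its counting interval, 5 moved it and 0 reversed a sign. The difference of subunits minus assembly factors stayed negative, from -19.6 to -6.88 points, under windows of 250 and 5000 bp, peaks covering a start, other sets of transcripts, wider peaks and the leaving out of Ndufa4 and Ndufa4l2. Counting only peaks near no other coding gene, an alternative chosen after seeing the data, lowered the share of complex I genes with a peak to 27.5% and of subunits to 23.7%, against 11.8% of coding genes, because 9 shared peaks are left out by construction. RefSeq starts, also chosen after seeing the data, changed no call. Peaks at or above the median width of the list left 17 of 51 genes, 33.3%, against 3079 of the 21938 coding genes. This setting removed Ecsit, Ndufa1, Ndufa9, Ndufb2, Ndufs7 and Tmem126a. Shorter letters raised the share of peaks with a match from 56.5% to 78.3% for CGGAAG and 100% for GGAA. Within 1000 bp to either side of the start, CCGGAAG was found at 25% of complex I genes without a peak. Over all coding genes, those with a peak included, it was found at 24.8%. In the narrower promoter window it was at 3.57% of complex I genes without a peak, against 4.10% of coding genes without a peak. No paired analysis was possible because there is 1 ChIP library. The unknown depth and the single library limit the list to presence of a peak.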

Other observations

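Other genes of complex I biogenesis lie outside the symbol rule, and 7 of 8 listed were found in the annotation. A peak lay at 3 of these 7, Foxred1, Lyrm2 and Tmem186, against 17.7% of all nuclear protein-coding genes. The difference was not tested. Foxred1, an oxidoreductase needed for complex I assembly, had a peak of 316 bp over its start, near which Srpr also starts. The peak of Lyrm2 spanned 257 bp. Tmem186, a component of the membrane arm assembly machinery, had a peak of 148 bp with 1 CCGGAAG, shared with Pmm2. The nearest peaks lay 8030 bp from Tmem70, 12226 bp from Nubpl, 49147 bp from Aifm1 and 344468 bp from Dmac1. Ndufb1-ps, annotated as a long noncoding RNA and so outside the rule, had its nearest peak 117956 bp away.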
